A study of Gallus gallus with 4 samples.

Results

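The lysosomal genes described here are 8 cathepsins (CTSA, CTSB, CTSC, CTSD, CTSH, CTSK, CTSS and CTSZ) and 2 proteins of the lysosomal membrane (LAMP1 and LAMP2). They were chosen by gene symbol, as every chicken probe set that the platform annotation assigns to 1 of these 10 genes. This gave 17 of 37693 chicken probe sets and 10 of 13008 chicken genes with a single symbol, and where a gene had several, its brightest set over the 4 arrays was taken to represent it. In the treated group, a plastic disc carrying 3 µg of human recombinant VEGF-A lay for 24 h on the chick chorio-allantoic membrane (CAM), the vessel-rich membrane used by the chick embryo for gas exchange, and tissue with visible new capillaries was taken on embryonic day 14. RNA of 3 such CAMs (VEGF CAMs 1, 2 and 3) was hybridised to 1 Affymetrix chicken array each. RNA of 3 normal CAMs of the same day was pooled and hybridised to a single array, the control pool. Sources differ on the control. The labels lay a disc on every sample on day 13, yet title the control a normal CAM. A legend of the study speaks of solvent and marks a disc border, while its methods speak of normal CAMs. Neither a strain nor a sex is given for the embryos. The spread between control CAMs was not measured.

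Lysosomes are acidic compartments in which proteins, lipids and sugars delivered by endocytosis, phagocytosis and autophagy are broken down. Cathepsins are their main proteases. Most are cysteine proteases, CTSD is an aspartic protease and CTSA a serine carboxypeptidase, and all are made as inactive precursors that reach the lysosome largely through mannose 6-phosphate tags. LAMP1 and LAMP2 are heavily glycosylated proteins that line the inner face of the lysosomal membrane. Nearly every cell has lysosomes, but macrophages are known for a high cathepsin content, and in remodelling tissue secreted cathepsins can cut matrix proteins.

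Values are signal intensities on a linear scale, as scaled by the authors, and a log2 ratio sets each VEGF-A CAM against the control pool. A minimum on mean signal, set at the 40th percentile (11.1), was passed by 14 of the 17 probe sets, and all 10 genes were measured by at least 1 of these. Array medians were 15.3 to 17.2 for the VEGF-A CAMs and 19.1 for the control pool, at a common trimmed mean. As a measure of RNA integrity, the 3' to 5' signal ratio of actin was 15.5 to 22.9 in the VEGF-A CAMs and 24.2 in the control pool. That of the elongation factor EF1a was 5.74 to 7.38 in the VEGF-A CAMs and 8.74 in the control pool. The 3' end thus read far stronger than the 5' end on every array, most of all in the lone control. Whether this loss of 5' signal moved the ratios, or parted the probe sets of a gene, was not tested. Epithelial markers, 13 of 13 past the filter, summed to signals of 46665, 65068 and 55903 in VEGF CAMs 1, 2 and 3 and 60614 in the control pool. Blood endothelial markers, 14 of 16 past the filter, summed to 11672, 7502 and 12418 in these CAMs and to 5205 in the control pool, and 12 of the 14 exceeded 2-fold in at least 2 CAMs. Markers of the labelled tissue and of its vessels were thus read on every array.

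None of the 10 genes was more than 2-fold higher, and none more than 2-fold lower, than in the control pool in at least 2 of the 3 CAMs. This is the fold part of the study's selection rule, which for higher genes also asked for detection in the VEGF-A group. Among the 10505 genes past the filter, 5.37% were higher and 6.03% lower by the same rule. Among the 6730 genes at least as bright as the dimmest of the 10, a background chosen after the values were seen, these shares were 3.52% and 2.05%. Such shares amount to less than 1 gene in 10 in each direction, so a count of 0 lies near the background. The mean log2 ratios ran from -0.71 for CTSS to 0.74 for LAMP2. Their median was -0.32, 0.01 and -0.03 in VEGF CAMs 1, 2 and 3, beside -0.05, -0.04 and -0.03 for all genes tested, which include genes dimmer than the 10. Centring each array on its median moved the median of the mean ratios to 0.16 for the 10 genes, against -0.10 as deposited, and to 0.19 for all genes, against -0.07, and it turned the signs of CTSB, CTSD, CTSK, CTSZ and LAMP1 and brought LAMP2 past the 2-fold rule. In the limma fit the spread between the VEGF-A CAMs stands in for that of the control. Its adjusted p values of the 10 genes lay between 0.85 and 0.99 and standard errors between 0.29 and 0.51. The lowest unadjusted p was 0.127, so 0 of the 10 genes passed 0.05 even without adjustment, where 3.98% of all genes were higher and 2.11% lower. Over all 22616 probe sets past the filter, 0% passed an adjusted p of 0.05. With 3 arrays on one side and 1 on the other, the smallest p of an exact permutation test is 0.25.

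**Figure D1:**
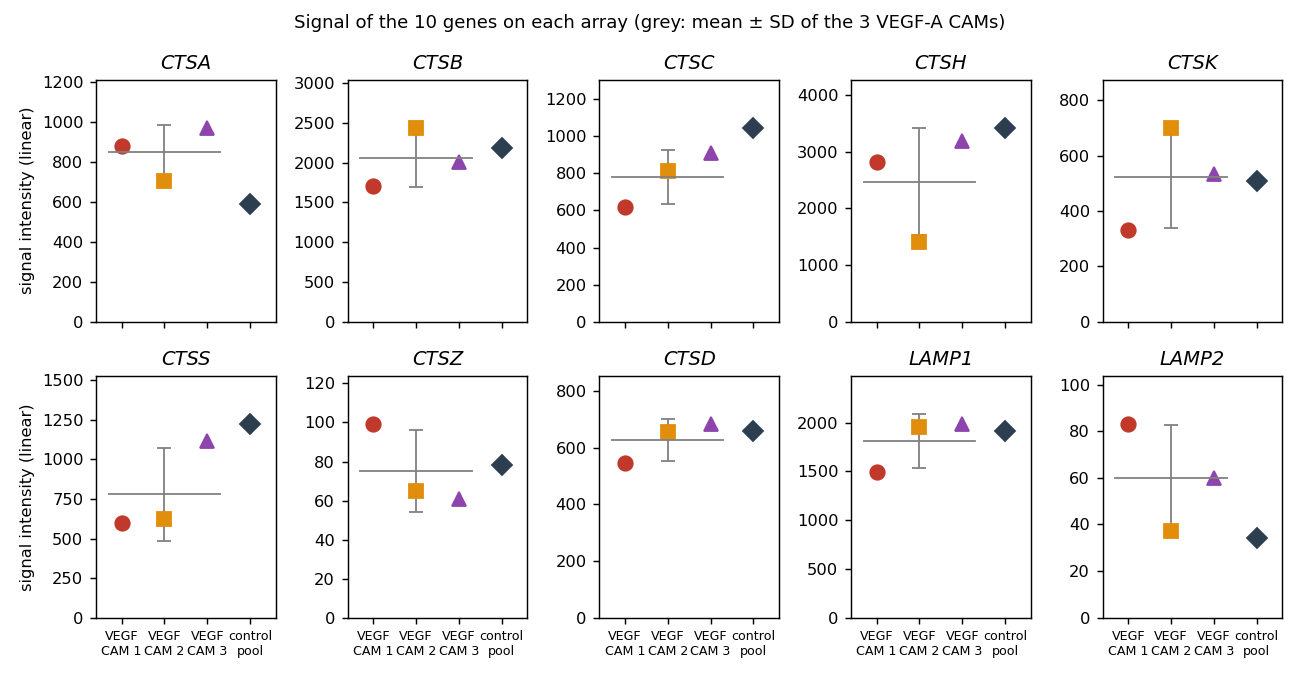
Signal intensity (linear axis from 0) of each of the 10 genes in VEGF CAMs 1, 2 and 3 and in the control pool, 1 point per array, with the mean and SD of the 3 VEGF-A CAMs in grey. The control pool lies below all 3 VEGF-A CAMs for CTSA and LAMP2, above all 3 for CTSC, CTSH and CTSS, and inside their range for the other 5 genes.

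The 3 VEGF-A CAMs all lay above the control pool for CTSA and LAMP2, all below it for CTSC, CTSH and CTSS, and on both sides of it for CTSB, CTSD, CTSK, CTSZ and LAMP1. As counts these are 2, 3 and 5 of 10 genes. The shares over all genes tested were 24.6% above, 29.8% below and 45.6% on both sides, so the split of the 10 genes is close to that of the whole array. All comparisons share the same control array, and a deviation of that array would move the 3 ratios of a gene together.

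CTSA, a serine carboxypeptidase that in mammals also holds beta-galactosidase and neuraminidase in a stable complex, had signals of 878, 705 and 969 in VEGF CAMs 1, 2 and 3 and of 587 in the control pool. All 3 CAMs were higher, by 1.45 ± 0.23-fold on average (SD of the ratio, n = 3 CAMs), and none reached 2-fold. The mean log2 ratio was 0.52, with a 95% interval from -0.21 to 1.26 (limma adjusted p = 0.85). The interval includes both no change and a 2-fold increase. GLB1, the beta-galactosidase of the complex, had 313, 370 and 416 in the VEGF-A CAMs and 323 in the control pool. It was chosen after its values were seen.

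CTSS, a cysteine protease that in mammals trims the invariant chain CD74 in antigen-presenting cells, had signals of 598, 623 and 1116 in VEGF CAMs 1, 2 and 3 and of 1221 in the control pool. VEGF CAMs 1 and 2 stood apart from the other 2 arrays, at ratios of 0.490 and 0.510, while VEGF CAM 3, at 0.914, was near the control. Of the 10 genes CTSS came nearest to the 2-fold rule for lower genes, with 1 CAM just past it and 1 just short. The mean log2 ratio was -0.71, with a 95% interval from -1.68 to 0.26 (limma adjusted p = 0.85). Leaving out VEGF CAM 3 moved it to -1.0004. Its probe set carries the suffix that Affymetrix gives to sets whose probes match more than 1 transcript, so the signal may not be of CTSS alone. The same limit holds for the second CTSB set, the third LAMP2 set and the TFEB set described below, among others.

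CTSC, a dipeptidyl peptidase that in mammals activates the serine proteases of granulocytes and mast cells, had signals of 620, 812 and 908 in VEGF CAMs 1, 2 and 3 and of 1045 in the control pool. All 3 CAMs were lower, at 0.75 ± 0.14 of the control on average (SD, n = 3 CAMs). On the log2 scale the mean was -0.44, with a 95% interval from -1.21 to 0.33 (limma adjusted p = 0.86), and -0.28 without VEGF CAM 1. CTSG, a granule protease and 1 of the substrates of CTSC in mammals, had 56.9, 68.1 and 72.3 in the VEGF-A CAMs and 31.9 in the control pool, above the control in all 3 CAMs.

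CTSH, an aminopeptidase, had signals of 2811, 1397 and 3188 in VEGF CAMs 1, 2 and 3 and of 3413 in the control pool. Only VEGF CAM 2 was far from the control, at a ratio of 0.409, and the other 2 were at 0.824 and 0.934. Its mean log2 ratio of -0.56, with a 95% interval from -1.64 to 0.53 (limma adjusted p = 0.87), rests on that CAM and was -0.19 without it.

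CTSK, which in mammals is the collagen-cutting protease of osteoclasts, had signals of 332, 700 and 532 in VEGF CAMs 1, 2 and 3 and of 509 in the control pool. VEGF CAM 1 was below the control, VEGF CAM 2 above it and VEGF CAM 3 beside it. The 3 log2 ratios averaged -0.03, with a 95% interval from -1.07 to 1.00 (limma adjusted p = 0.99), and it turned to 0.26 without VEGF CAM 1. In the RefSeq table CTSK and CTSS are neighbouring genes. In VEGF CAMs 1, 2 and 3 the log2 ratios were -0.62, 0.46 and 0.07 for CTSK and -1.03, -0.97 and -0.13 for CTSS. Both were thus lower in VEGF CAM 1, and they parted most in VEGF CAM 2.

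CTSB, which cuts both inside proteins and at their carboxy end, had signals of 1709, 2433 and 2013 in VEGF CAMs 1, 2 and 3 and of 2181 in the control pool. At its second probe set the signals were 493, 578 and 524 in the same CAMs and 470.0 in the control pool. The control thus lay inside the range of the CAMs at the brighter set and below all of them at the other. The mean log2 ratios were -0.10, with a 95% interval from -0.80 to 0.59, and 0.17, with one from -0.53 to 0.88 (limma adjusted p = 0.94 and 0.91). At both sets a 2-fold change lay outside the interval on the signals as deposited.

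CTSZ, a carboxypeptidase, was dim, with signals of 99.1, 64.8 and 61.0 in VEGF CAMs 1, 2 and 3 and of 78.3 in the control pool. VEGF CAM 1 was above and the other 2 below the control. Their log2 ratios averaged -0.10, with a 95% interval from -1.07 to 0.88 (limma adjusted p = 0.96).

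CTSD, the aspartic protease of the lysosome, had signals of 545, 655 and 683 in VEGF CAMs 1, 2 and 3 and of 658 in the control pool. VEGF CAMs 2 and 3 were at 0.995 and 1.04 of the control and VEGF CAM 1 at 0.829. A mean log2 ratio of -0.07 resulted, with a 95% interval from -0.79 to 0.64 (limma adjusted p = 0.96). Its 2 other probe sets were dim and read differently. The first had 12.3, 19.2 and 1.90 in VEGF CAMs 1, 2 and 3 and 34.4 in the control pool, and the last, below the filter, had 15.8, 0.671 and 2.71 in these CAMs and 15.9 in the control pool. Signals of 1.90, 0.671 and 2.71 lie under the 20th percentile of all signals, which was 3.12, so the ratios there depend on the background and no fold is given. The first of them was the only probe set of the 14 past the filter to be called by the 2-fold rule, as lower, and 0 were called higher, where 9.25% of all probe sets were lower and 6.79% higher.

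LAMP1, known in the chicken as LEP100, had signals of 1494, 1959 and 1982 in VEGF CAMs 1, 2 and 3 and of 1918 in the control pool. VEGF CAMs 2 and 3 were at 1.02 and 1.03 of the control and VEGF CAM 1 at 0.779 of it. The log2 ratios averaged -0.09, with a 95% interval from -0.78 to 0.59 (limma adjusted p = 0.95). CTSB, CTSD and LAMP1 are the 3 genes whose interval, at the brightest probe set, lay inside 2-fold in both directions. For 7 of the 10 genes, all but CTSA, CTSK and LAMP2, a 2-fold increase lay outside it on the signals as deposited. Median centring moved the mean of CTSZ, whose upper bound was 0.88 as deposited, from -0.10 to 0.16.

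LAMP2, which in mammals also acts as the receptor of chaperone-mediated autophagy, is read by 5 probe sets, all of them dim. The brightest had signals of 83.0, 37.3 and 59.8 in VEGF CAMs 1, 2 and 3 and of 34.1 in the control pool. VEGF CAMs 1 and 3 were clear of the control, at ratios of 2.43 and 1.75, while VEGF CAM 2 was beside it, at 1.09. Its mean log2 ratio was 0.74, with a 95% interval from -0.46 to 1.94 (limma adjusted p = 0.86). It was 0.47 without VEGF CAM 1, 1.05 without VEGF CAM 2 and 0.45 with an offset of 32 added to every signal. The next probe set had 27.3, 23.7 and 21.3 in the VEGF-A CAMs and 21.6 in the control pool, which shows little difference between any of the arrays. The third had 9.34, 19.6 and 11.8 in the VEGF-A CAMs and 20.5 in the control pool, and here VEGF CAMs 1 and 3 were the ones below the control. Averaged over the 3 probe sets past the filter, the mean log2 ratio of LAMP2 was 0.07. LAMP2 makes several spliced forms, and which of them each set reads is not given in the sources used here.

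**Figure D2:**
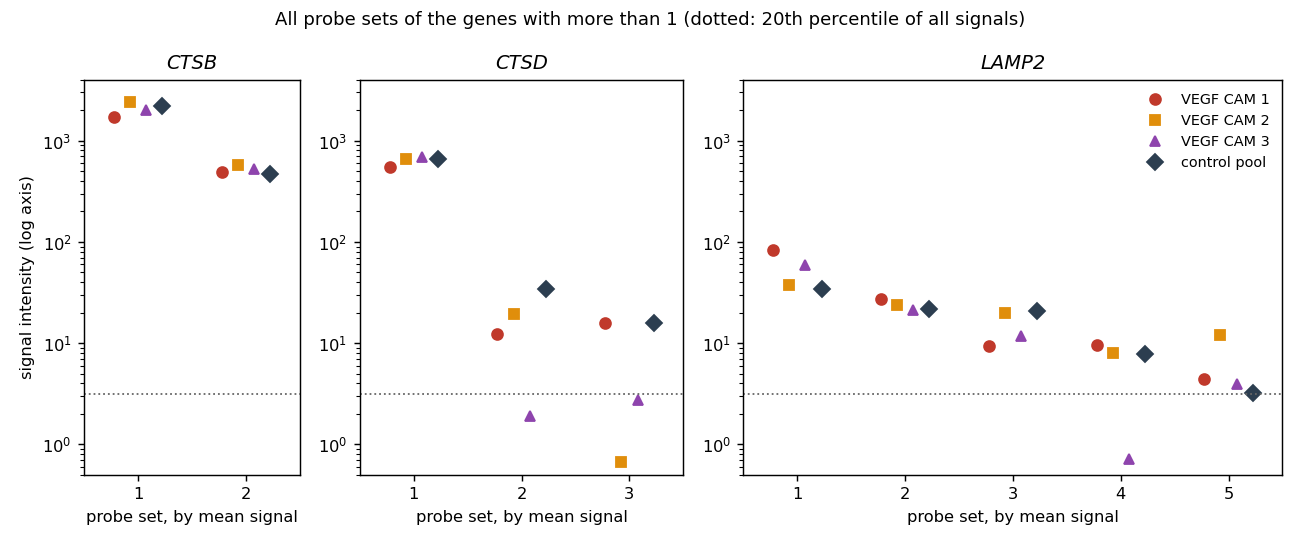
Signal intensity (log axis) of every probe set of CTSB, CTSD and LAMP2, the 3 genes with more than 1, ordered by mean signal, in VEGF CAMs 1, 2 and 3 and the control pool. The brightest LAMP2 set has VEGF CAMs 1 and 3 at 83.0 and 59.8 over a control of 34.1, and the third has them at 9.34 and 11.8 under a control of 20.5. The dotted line is the 20th percentile of all signals, 3.12.

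**Figure D3:**
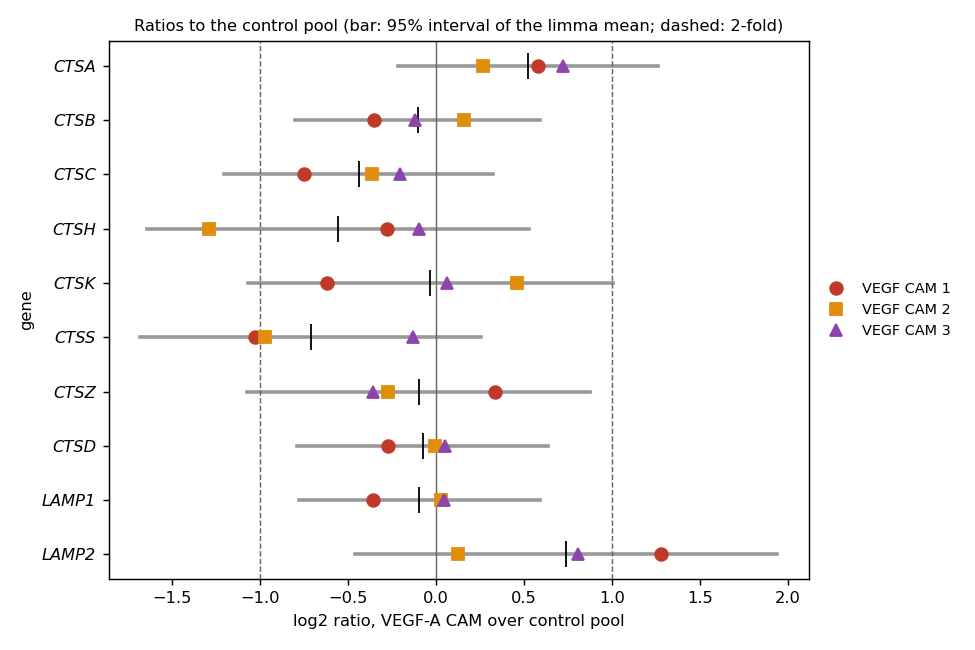
Log2 ratio of VEGF CAMs 1, 2 and 3 to the control pool for the 10 genes, with the limma mean (tick) and its 95% interval (bar), and dashed lines at 2-fold. All 10 intervals include 0, and only CTSS and LAMP2 in VEGF CAM 1 and CTSH in VEGF CAM 2 lie beyond 2-fold.

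The genes differed more between CAMs than their means show. In VEGF CAM 1 LAMP2 was more than 2-fold higher and CTSS more than 2-fold lower, which is 1 of 10 genes each way, beside 6.84% and 9.6% of all genes. In VEGF CAM 2 no gene was higher and CTSH was lower, beside 6.76% and 10.1%, and in VEGF CAM 3 none was either, beside 6.04% and 7.34%. VEGF CAM 1 had the lowest signal of the 3 CAMs for 6 genes (CTSB, CTSC, CTSD, CTSK, CTSS and LAMP1), VEGF CAM 2 for 3 and VEGF CAM 3 for 1, where over all genes the lowest CAM was VEGF CAM 1 in 34%, VEGF CAM 2 in 37.7% and VEGF CAM 3 in 28.3%. This measure does not involve the control array. The shares over all genes include genes dimmer than the 10, and no share was taken among bright genes alone. RPL9, RPL13 and HBA1, the brightest genes tested, were also lowest in VEGF CAM 1, as was every other gene brighter than ANXA2. ANXA2 was lowest in VEGF CAM 3, at a log2 ratio of -0.37, close to its -0.35 in VEGF CAM 1. All of these read brighter than any of the 10 genes. Among dimmer genes the run was broken, with KRT24 lowest in VEGF CAM 2 and TPT1 in VEGF CAM 3. Nearest in signal to CTSH, the brightest of the 10, the lowest CAM varied. It was VEGF CAM 1 for VCP, VEGF CAM 2 for NONO and VEGF CAM 3 for FH and MYH10. The genes named for this comparison were chosen after their values were seen. Whether the pattern is particular to the 10 genes was not tested. The distance between the highest and the lowest CAM had a median of 0.62 on the log2 scale for the 10 genes. For all genes tested, which include genes dimmer than the 10, the median was 0.63. The distance was widest for CTSH (1.19), LAMP2 (1.15) and CTSK (1.08). Of all genes tested, 20.02% had a wider range than CTSH, and of those at least as bright as the dimmest of the 10, 8.69% did. Among these bright genes the share was 9.44% for LAMP2, 11.1% for CTSK and 18.3% for CTSS. The ranges of CTSD (0.33), LAMP1 (0.41) and CTSA (0.46) were the narrowest, with 73.6%, 63.7% and 57.2% of the bright genes wider.

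Macrophage markers were read on the same arrays. Of 22 on the array, 20 passed the filter. By the 2-fold rule 1 of these was higher and 0 lower, beside 5.37% and 6.03% of all genes. The one was MRC1, the mannose receptor, with 298, 406 and 267 in VEGF CAMs 1, 2 and 3 and 107 in the control pool. CSF1R, the receptor that defines the lineage, had 255, 213 and 230 in the VEGF-A CAMs and 226 in the control pool. At its next probe set, CSF1R had 59.4, 78.7 and 65.3 in the VEGF-A CAMs and 54.9 in the control pool. The median of the 20 mean log2 ratios was -0.27, beside -0.07 for all genes. All 3 CAMs were above the control for 2 of the 20 (10%) and below it for 7 (35%), beside 24.6% and 29.8% of all genes. The summed signal of the 20 markers was 2721, 3821 and 4852 in VEGF CAMs 1, 2 and 3 and 4166 in the control pool, and no marker was at 0 on any array. Much of this sum came from CD74, the mammalian substrate of CTSS, which had 818, 1271 and 2357 in the VEGF-A CAMs and 1885 in the control pool at its brightest probe set. Without CD74, an alternative chosen after seeing the data, the other 19 markers summed to 1903, 2550 and 2495 in the VEGF-A CAMs and 2280 in the control pool. The sum was lowest in VEGF CAM 1 with or without CD74, and the order of VEGF CAMs 2 and 3 turned with CD74. The part of macrophages in the cathepsin values was not tested. In tissue RNA, fewer cells of a type cannot be told apart from less RNA per cell.

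Of 126 other lysosomal genes on the array 110 passed the filter. By the 2-fold rule 3 of these (2.73%) were higher, 1 (0.909%) was lower and 106 were neither, where the shares over all genes were 5.37% and 6.03%. By limma 0 passed an adjusted p of 0.05, and at an unadjusted p under 0.05, 3 were higher and 3 lower. Their median log2 ratio was -0.13, 0.00 and -0.05 in VEGF CAMs 1, 2 and 3. All 3 CAMs were above the control for 22 of the 110 (20%) and below it for 37 (33.6%).

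Among 31 other hydrolases, 1 was higher, 0 were lower and 30 were neither. The one was PRCP, a lysosomal prolylcarboxypeptidase, with signals of 1594, 1964 and 1930 in VEGF CAMs 1, 2 and 3 and of 287 in the control pool (mean log2 ratio 2.67, SE 0.29, limma adjusted p = 0.21). CTSA is a carboxypeptidase as well, and its ratios were 1.497, 1.202 and 1.652. Other carboxypeptidases were not higher. SCPEP1, of the same list, had 83.8, 145 and 76.0 in the VEGF-A CAMs and 122 in the control pool. CTSZ had a mean log2 ratio of -0.10. Of 5 other cathepsins and related proteases CTSG was higher and 4 were neither. Its mean log2 ratio was 1.04, with a 95% interval from 0.15 to 1.92 (limma adjusted p = 0.74). CTSV, the chicken relative of cathepsin L, had 8752, 13035 and 12950 in the VEGF-A CAMs and 14045 in the control pool, and legumain (LGMN), which processes other cathepsins, had 1637, 2033 and 1899 in the VEGF-A CAMs and 2712 in the control pool. CTSV, LGMN and SCPEP1 fall outside the rule for named genes and were chosen after their values were seen. The same holds for CD74, MRC1 and CSF1R above and for the protease inhibitors, M6PR and IGF2R below.

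None of 6 protease inhibitors passed the 2-fold rule, and the median of their mean log2 ratios was -0.10. CSTB, an intracellular inhibitor of cysteine cathepsins, had signals of 1084, 1287 and 1246 in VEGF CAMs 1, 2 and 3 and of 2144 in the control pool. All 3 CAMs were well below the control and close to each other, and the mean log2 ratio was -0.83, with a 95% interval from -1.48 to -0.19 (limma adjusted p = 0.69). CSTA, of the same family, had 350, 527 and 306 in the VEGF-A CAMs and 630 in the control pool. CST7, which in mammals inhibits CTSC among others, had 456, 209 and 105 in the VEGF-A CAMs and 199 in the control pool, above, beside and below the control in turn. CST3, the brightest of the 6, had 4466, 3672 and 4755 in the VEGF-A CAMs and 3955 in the control pool. The mean log2 ratios were 0.11 for CST3, 0.04 for SERPINB1 and -0.24 for SERPINB6.

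Of 25 genes of sorting and regulation, 1 was higher, 1 lower and 23 neither. The higher one was TFEB, the transcription factor that switches on lysosomal genes, which was dim, at 32.7, 54.6 and 13.9 in the VEGF-A CAMs and 13.7 in the control pool. VEGF CAM 3 was level with the control, and the mean log2 ratio was 1.09, with a 95% interval from -0.75 to 2.93 (limma adjusted p = 0.86). The lower one was GNPTAB, the enzyme that starts the mannose 6-phosphate tag. It had 164, 62.2 and 63.8 in the VEGF-A CAMs and 263 in the control pool at its brightest probe set, with a mean log2 ratio of -1.60 (limma adjusted p = 0.74). Its 2 other sets past the filter were not called, with 88.2, 81.8 and 66.2 in the VEGF-A CAMs and 57.6 in the control pool at the first and 14.7, 21.5 and 9.60 in the VEGF-A CAMs and 11.2 in the control pool at the second, so its call depends on the probe set. M6PR, a receptor for the tag, had 59.6, 103 and 70.0 in the VEGF-A CAMs and 117 in the control pool at its brightest set, and 86.5, 61.1 and 72.9 in the VEGF-A CAMs and 81.6 in the control pool at the next, where VEGF CAM 1 was above the control. IGF2R, the other receptor for the tag, was brighter, with 483, 487 and 403 in the VEGF-A CAMs and 478 in the control pool. Its mean log2 ratio was -0.07. With 1 CAM left out a call needed both remaining CAMs, a stricter rule than 2 of 3. Without VEGF CAM 1 the calls among the 110 genes were PRCP, CTSG and GNPTAB, without VEGF CAM 2 PRCP alone, and without VEGF CAM 3 PRCP and TFEB.

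All 20 listed subunits and partners of the proton pump, and all 23 other lysosomal membrane proteins past the filter, were neither higher nor lower by the rule. Their median mean log2 ratios were -0.09 and -0.13, beside -0.10 for the 10 genes and -0.07 for all genes. Mean log2 ratios ran from -0.55 to 0.75 for the pump and reached 0.92 for the membrane proteins. The pump acidifies the lysosome, but its list was not limited to the isoforms found there. The lowest membrane protein, TMEM9, named after its values were seen, had 16.2, 2.23 and 21.9 in the VEGF-A CAMs and 21.1 in the control pool. Its signal in VEGF CAM 2 lies under the 20th percentile of all signals (3.12), so no fold is given.

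**Figure D4:**
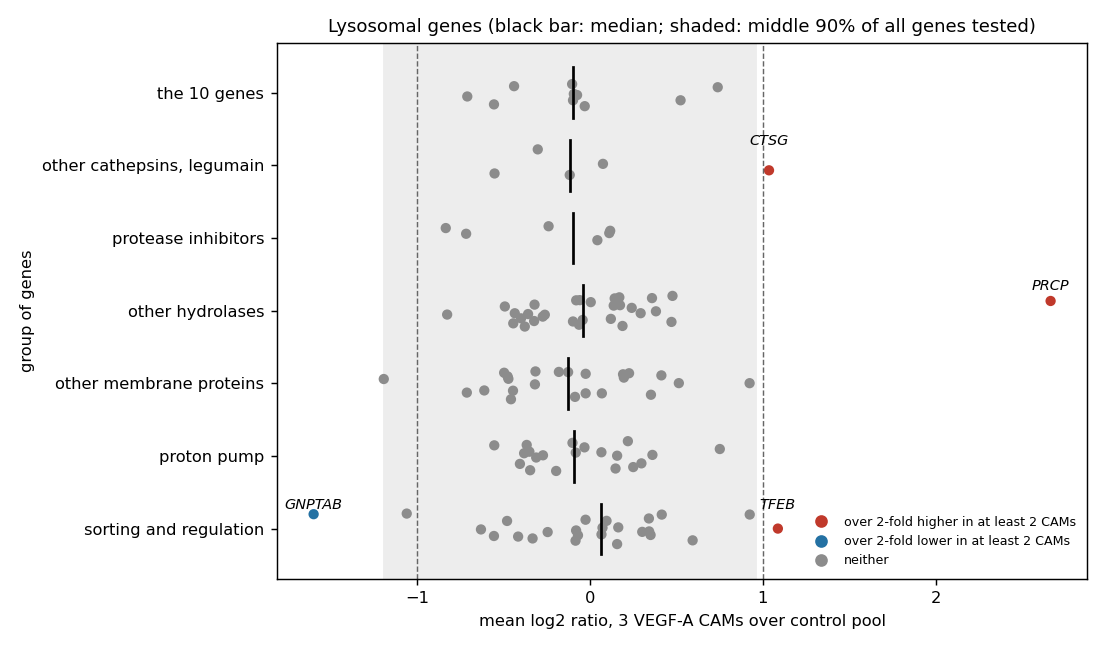
Mean log2 ratio of the 3 VEGF-A CAMs to the control pool, 1 point per gene, for the 10 genes and 6 other groups of lysosomal genes, with the median of each group as a black bar and the middle 90% of all genes tested (-1.19 to 0.96) shaded. Only PRCP, CTSG and TFEB (higher) and GNPTAB (lower) are called by the 2-fold rule.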

How the data were processed

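RNA of 3 single VEGF-A CAMs and of 1 pool of 3 control CAMs was measured on 4 Affymetrix chicken arrays. The authors deposited a signal intensity per probe set and array, linear, with GCOS 1.2 named in the submitters' processing notes; every array has a 2% trimmed mean of 100.0. How background was removed and probes were summarised is not given in the sources used here. Gene names come from the platform annotation, and all 10 symbols and gene IDs matched RefSeq (assembly GRCg7b, used for names only). Of the deposited value columns 0 were left out. No sequence table was used here.

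Chicken probe sets with a mean signal above the 40th percentile were tested on the log2 scale, with no pseudocount, by limma 3.58.1 in R 4.3.3 (variance trend, prior degrees of freedom 5.23, 2 residual) with Benjamini-Hochberg adjustment over 22616 probe sets. A call means a ratio over 2, or under its inverse, in at least 2 of 3 comparisons, which is the fold part of the study's rule without its detection call. Functions were tested on simulated data. Figures were drawn with matplotlib 3.10.9 in Python 3.11.15.

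The genes and lists were chosen with earlier results of these data known. The annotation gives 1 symbol to 27166 chicken probe sets, several to 177, which named no gene, and none to 10350. The study's detection calls were not used here. Named genes are the 10 genes and, of each other lysosomal list, up to 5 called genes each way. Of 289 list entries 242 were found on the array, older symbols included. The marker lists not given elsewhere had median log2 ratios of -0.01 (heterophils), 0.24 (red blood cells), 0.21 (fibroblasts), 0.27 (smooth muscle) and 0.10 (transporting epithelium). The alternatives were quantile normalization, median centring, a floor at the 20th percentile, an added offset (32), a filter at the 60th percentile or none, no variance trend, other choices of probe set, and the omission of 1 VEGF-A CAM at a time. Precision is limited by how few arrays there are.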

Additional observations from a re-analysis of the deposited data

How the results depend on the processing

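Of 120 values of the 10 genes under the alternatives, 57 were identical to the deposited setting, since the filter, the floor, the trend or the choice of probe set left them unchanged. Of the other 63, 52 kept their direction and 11 reversed. A p was computed for 110 of the 120, and 0 of these passed an adjusted p of 0.05 (lowest 0.48). Centring each array on its median raised the median ratio of all genes to 0.19, against -0.07 as deposited, which turned CTSB to 0.15, CTSK to 0.22, CTSZ to 0.16, CTSD to 0.18 and LAMP1 to 0.16, the median of the 10 genes to 0.16 and the number higher by the 2-fold rule to 1 (LAMP2). It moved CTSC to -0.18, CTSH to -0.30 and CTSS to -0.46. The mean over probe sets turned CTSB to 0.036. It also moved CTSD from -0.07 to -1.12 and LAMP2 from 0.74 to 0.07, both without a change of sign. For CTSD this mean takes in a dim probe set with a signal of 1.90 in VEGF CAM 3, where the ratio depends on the background. The value of CTSD thus depends on the choice of probe set. Leaving out a CAM gave -0.23 to 0.021 for CTSB, -0.28 to 0.26 for CTSK, -0.14 to 0.023 for CTSD and -0.16 to 0.039 for LAMP1, each positive without VEGF CAM 1, and -0.32 to 0.032 for CTSZ, positive without VEGF CAM 3. With 1 CAM left out the rule asks for both remaining CAMs, which is stricter than 2 of 3; it gave 0 of the 10 genes higher or lower, 1 to 2 other lysosomal genes higher and 0 to 1 lower, 886 to 1027 probe sets higher and 915 to 1047 lower, and 0 to 1 past limma's adjusted p. Other lysosomal genes higher numbered 5 with median centring, 4 with quantile normalization, 1 with the offset and 5 without a filter. Those lower numbered 6 without a filter and 0 as the mean of probe sets. Probe sets higher and lower, 1535 and 2092 as deposited, numbered 2418 and 1213 with median centring and 1944 and 1541 with quantile normalization. Higher calls thus outnumbered lower ones under both. The numbers were 245 and 232 with the offset, 4565 and 6804 without a filter, and 703 and 730 at the 60th percentile. Higher calls made up a larger share with centring because it raises every ratio, and the filters change the number tested; other causes were not tested. No paired analysis was possible because the control is 1 pooled array.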
